A study of Mus musculus with 12 samples.

Results

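Mitochondrial ribosomal proteins were examined as the 78 protein-coding mouse genes whose symbols read Mrpl or Mrps followed by a digit, among 49548 genes counted in the lumbar spinal cord. Of these, 49 belong to the large subunit (Mrpl) and 29 to the small subunit (Mrps) by symbol. Total RNA of 8 MFN2 and 4 WT mice, untreated and 30 days old, had been sequenced with 1 library per mouse. MFN2 mice are labelled CMT2A, have a B6;D2 background and are also known as MitoCharc1. Their transgene, Tg(Eno2-MFN2*R94Q)L51Ugfm, is the human MFN2 with the R94Q change, which causes the axonal neuropathy Charcot-Marie-Tooth type 2A in patients. The transgene is driven by the rat Eno2 promoter, which is active in neurons, and the animals keep both copies of their own Mfn2. WT mice are labelled C57BL/6 and described as littermates in the study's methods. Total counts ranged from 19359454 to 26738930 per library.

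The mitochondrial ribosome, or mitoribosome, translates the few messenger RNAs of the mitochondrial genome, all of which code for subunits of the respiratory chain and the ATP synthase. All of its proteins are encoded in the nucleus, made by cytosolic ribosomes and imported, and they assemble on ribosomal RNAs made inside the organelle. Some have counterparts in bacterial ribosomes (46 of the 78 genes), whereas others are specific to mitochondria (32 genes). In neurons, local translation in mitochondria along the axon depends on this machinery. Genes of the mitochondrial chromosome were not analysed here.

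The 78 genes were spread over 17 chromosomes, and many shared their start region with another gene. For 33 members (42.3%), a protein-coding gene on the other strand started within 1000 bases of the member's start, compared with 10.9% of the 21951 protein-coding genes of the annotation. Several of these neighbours are themselves mitochondrial. The starts of Mrps12 and of Sars2, the mitochondrial seryl-tRNA synthetase, lay 172 bases apart, and those of Mrps11 and Mrpl46, which belong to different subunits, 412 bases apart. Mrpl36 shared its start region with Ndufs6, a complex I subunit, at 29 bases, and Mrpl43 with Twnk, the mitochondrial DNA helicase, at 779 bases.

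Promoter sequences from RefSeq (GRCm38.p6) were matched for 69 members, which had 75 windows of 250 bases before to 50 bases after a start. Motifs were searched on both strands as fixed letters, and a window was counted once. CCGGAAG, the core bound by ETS factors such as GABP, was present in 34.7% of the members' windows, 11.6% of the 21263 windows of protein-coding genes and 8.86% of all 32851 windows. AAGATGGCG, the core of the YY1 site, was found in 10.7%, 1.83% and 1.4% of these windows. The palindrome of nuclear respiratory factor 1 (NRF1), spelled out by the 10 adjoining capitals of the Mrpl39 promoter, was found in 4.0%, 1.33% and 0.971%, and the form that leaves its T free, which includes the palindrome, in 17.3%, 6.38% and 4.6%. GGGCGG, bound by SP factors, was found in 52.0%, 46.2% and 35.7%, CCAAT, bound by NF-Y, in 40.0%, 38.2% and 37.4%, and TATAAA in 6.67%, 12.6% and 13.6%. The median GC content of the windows was 58.7% for the members, 56.3% for protein-coding genes and 52.7% for all windows. GC content differed between these sets of windows, and its part in the motif shares was not tested. A match in these letters is a description of the sequence and not a bound site.

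**Figure D1:**
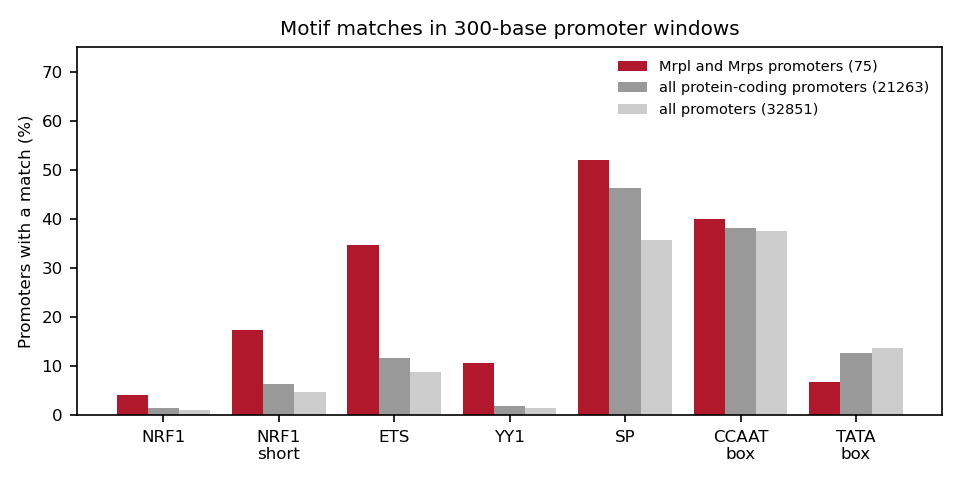
Bars give the share of promoter windows (y axis, percent) that hold each of 7 motifs (x axis), for 75 windows of the mitochondrial ribosomal proteins, 21263 windows of protein-coding genes and all 32851 windows. The ETS letters were present in 34.7% of the members' windows against 11.6% of those of protein-coding genes, whereas CCAAT was present in similar shares (40.0% and 38.2%).

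To show how different these promoters are, the 250 bases before the RefSeq start are printed for 4 members. They are the pair with the largest falls and the pair with the largest rises among members called in MFN2 libraries 72 to 76 against WT, leaving out those with a neighbour start within 1000 bases on the other strand. Each is written 5′ to 3′ on the strand of the gene, in lower case, with matches to the motifs in capitals. Mrpl34 lies at chr8:71464676-71464925 on the plus strand, Mrpl35 at chr6:71823785-71824034 on the minus strand, Mrps31 at chr8:22411090-22411339 on the plus strand and Mrpl39 at chr16:84735245-84735494 on the minus strand.
Mrpl34: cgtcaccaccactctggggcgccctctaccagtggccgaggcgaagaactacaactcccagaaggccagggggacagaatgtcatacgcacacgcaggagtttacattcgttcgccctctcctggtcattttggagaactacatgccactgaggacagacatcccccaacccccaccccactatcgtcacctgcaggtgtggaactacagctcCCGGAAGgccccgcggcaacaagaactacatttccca
Mrpl35: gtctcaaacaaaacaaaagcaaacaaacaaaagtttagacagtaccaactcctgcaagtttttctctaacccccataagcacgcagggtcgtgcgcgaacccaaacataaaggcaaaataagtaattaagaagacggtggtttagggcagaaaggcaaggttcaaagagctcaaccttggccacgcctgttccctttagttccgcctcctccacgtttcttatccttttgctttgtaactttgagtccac
Mrps31: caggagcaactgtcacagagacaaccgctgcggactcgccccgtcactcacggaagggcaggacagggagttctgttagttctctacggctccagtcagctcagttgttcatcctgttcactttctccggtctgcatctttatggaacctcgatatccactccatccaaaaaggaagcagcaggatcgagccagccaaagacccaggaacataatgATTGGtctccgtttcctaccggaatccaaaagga
Mrpl39: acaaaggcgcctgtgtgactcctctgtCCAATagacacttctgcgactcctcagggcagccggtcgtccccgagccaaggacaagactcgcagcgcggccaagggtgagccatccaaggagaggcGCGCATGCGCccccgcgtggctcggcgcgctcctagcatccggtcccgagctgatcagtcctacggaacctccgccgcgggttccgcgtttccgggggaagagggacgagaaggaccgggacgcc
The capitals mark the ETS core in Mrpl34, which begins 37 bases before the start, CCAAT read on the opposite strand (ATTGG) in Mrps31, 34 bases before it, and in Mrpl39 a CCAAT at 223 and the NRF1 palindrome at 125 bases before it. The stretch of Mrpl35 held none of the motifs, although its full window, which runs 50 bases past the start, held the YY1 letters.

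Libraries are named by the numbers in their labels. WT libraries are 44 to 47, and MFN2 libraries are 41 to 43 and 72 to 76. All WT libraries thus belong to the lower run of numbers, and for MFN2 libraries 72 to 76 the run and the genotype cannot be told apart. By the labels, mouse background and genotype cannot be told apart either, in any comparison with WT. Therefore, beside MFN2 against WT over all 12 libraries, MFN2 libraries 72 to 76 and 41 to 43 were each compared with WT, and with one another. The 3 comparisons with WT use the same WT libraries and are not independent of each other.

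MFN2 library 43 stood apart from the other libraries. Markers of forebrain neurons summed to 4725 CPM (library-scaled counts with the TMM factor) in it and to between 109 and 208 CPM elsewhere, with Camk2a as the most abundant of the 9 genes. Hox genes of caudal position summed to 37.3 CPM in library 43 and to between 160 and 255 CPM in the other libraries. Its sum of 4 oligodendrocyte markers was 7365 CPM, against 19572 to 31679 CPM elsewhere. Chat, the acetylcholine-synthesising enzyme of motor neurons, was at 5.21 CPM in library 43, compared with 16.4 to 35.3 CPM in the others, so that the label of spinal cord was matched by its markers in 11 of 12 libraries. Skeletal muscle markers summed to 182 CPM in WT library 47 and 168 CPM in MFN2 library 73, against 28.9 CPM or less in the rest. The 5 motor neuron markers summed to 25.2 CPM in library 43 and to 98.5 to 234 CPM in the others. The 3 markers of neurons summed to 1760 to 2574 CPM, those of oligodendrocyte precursors to 87.0 to 118 CPM and those of blood to 48.9 to 145 CPM over the 12 libraries. The female transcript Xist was at 0.267 CPM or less and the Y-linked Ddx3y at 66.4 CPM or more in libraries 41, 43 and 44, while the other 9 libraries had Ddx3y at 0. Counts were therefore also compared without libraries 43, 47 and 73.

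Messenger RNA of the mitochondrial ribosomal proteins was present at moderate levels. Of the 78 genes, 77 exceeded 1 CPM in at least 3 libraries and were tested. Per length of exon, the median member had 8.23 RPKM (CPM divided by the exon length in kilobases) in WT, with quartiles of 5.14 and 13.3 RPKM, compared with 3.985 RPKM for all genes tested. On the same scale, the median of the proteins of the cytosolic ribosome was 48.2 RPKM and that of nuclear-encoded complex I subunits 45.7 RPKM. The median was 9.36 RPKM in the large and 7.52 RPKM in the small subunit, and 7.78 RPKM for members with bacterial counterparts against 8.65 RPKM for those specific to mitochondria. The WT mice resembled each other, with a median coefficient of variation of 6.53% over the members and 10.04% over all genes tested. RPKM assumes reads along the whole transcript, and the study's methods name both 3′ mRNA sequencing and a total RNA kit.

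Among WT mice, Mrpl18, a large-subunit protein of the central protuberance, had the highest level over the union of exons, at 31.9 ± 2.55 RPKM (SD, n = 4). Mrpl12, the stalk protein that also binds the mitochondrial RNA polymerase, followed at 28.9 ± 2.57 RPKM, and Mrpl41, a mitochondria-specific protein of the large subunit, at 27.3 ± 4.79 RPKM. Mrps21 had 22.5 ± 1.47 RPKM and Mrpl34, a small protein that contacts ribosomal RNA, 20.9 ± 3.14 RPKM. Mrpl12 and Mrpl41 differed by less than the SD of Mrpl41, and Mrps21 and Mrpl34 by less than the SD of Mrpl34. Over the longest transcript of each gene, the order changed, with Mrpl20 highest at 37.6 RPKM, followed by Mrpl18 (36.6), Mrps21 (34.1), Mrpl12 (33.6) and Mrpl41 (31.3 RPKM). In MFN2 mice, the 5 genes first named had 31.6 ± 3.02, 27.5 ± 1.77, 24.5 ± 2.16, 23.4 ± 2.74 and 15.6 ± 4.34 RPKM (SD, n = 8).

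Several of the lowest levels belonged to genes with long or shared annotated exons. Mrpl33 was at 0.563 ± 0.0430 RPKM, with 7326 exonic bases in the union of its transcripts, and at 1.504 RPKM over its longest transcript. Mrpl23, a protein of the exit tunnel, had 1.45 ± 0.0616 RPKM and a named pseudogene. Mrps18c had 1.73 ± 0.204 RPKM, Mrpl32, which is cleaved by the m-AAA protease before it joins the ribosome, 1.81 ± 0.108 RPKM, and Mrps35 2.45 ± 0.114 RPKM. The paralogs Mrps18a and Mrps18b, which occupy different places from Mrps18c, had 6.93 ± 0.303 and 2.94 ± 0.101 RPKM. Mrps30, whose protein lies in the large subunit despite its name, was at 3.08 ± 0.160 RPKM, and Mrps36, now placed in the 2-oxoglutarate dehydrogenase complex, at 8.23 ± 0.837 RPKM with 3 named pseudogenes. With TMM scaling and no library left out, none of these 9 genes was called in any of the 4 comparisons by edgeR's quasi-likelihood test. Shares of all genes called ran from 0.0% to 23.8%, the latter in libraries 72 to 76 against WT. Without library 75, Mrpl32 was called in that comparison, as were 17.4% of all genes. With library size alone, Mrpl32 and Mrps30 were called higher in libraries 72 to 76 than in WT. That scaling called 26.5% of all genes there, in either direction.

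Mrpl53 was the one member not tested, with 0 counts in all 12 libraries. Of its 790 exonic bases, 695 are also exon of Gm42688, a gene model on the same strand of chromosome 6 at 83101617 to 83109939 that received 8 to 19 counts per library. Overlaps of this kind are common among the members: 33 share exonic bases with another gene, 8 of them on the same strand and 28 on the opposite one. How reads in shared exons were assigned is not given in the sources used here, so levels of these members are uncertain.

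**Figure D2:**
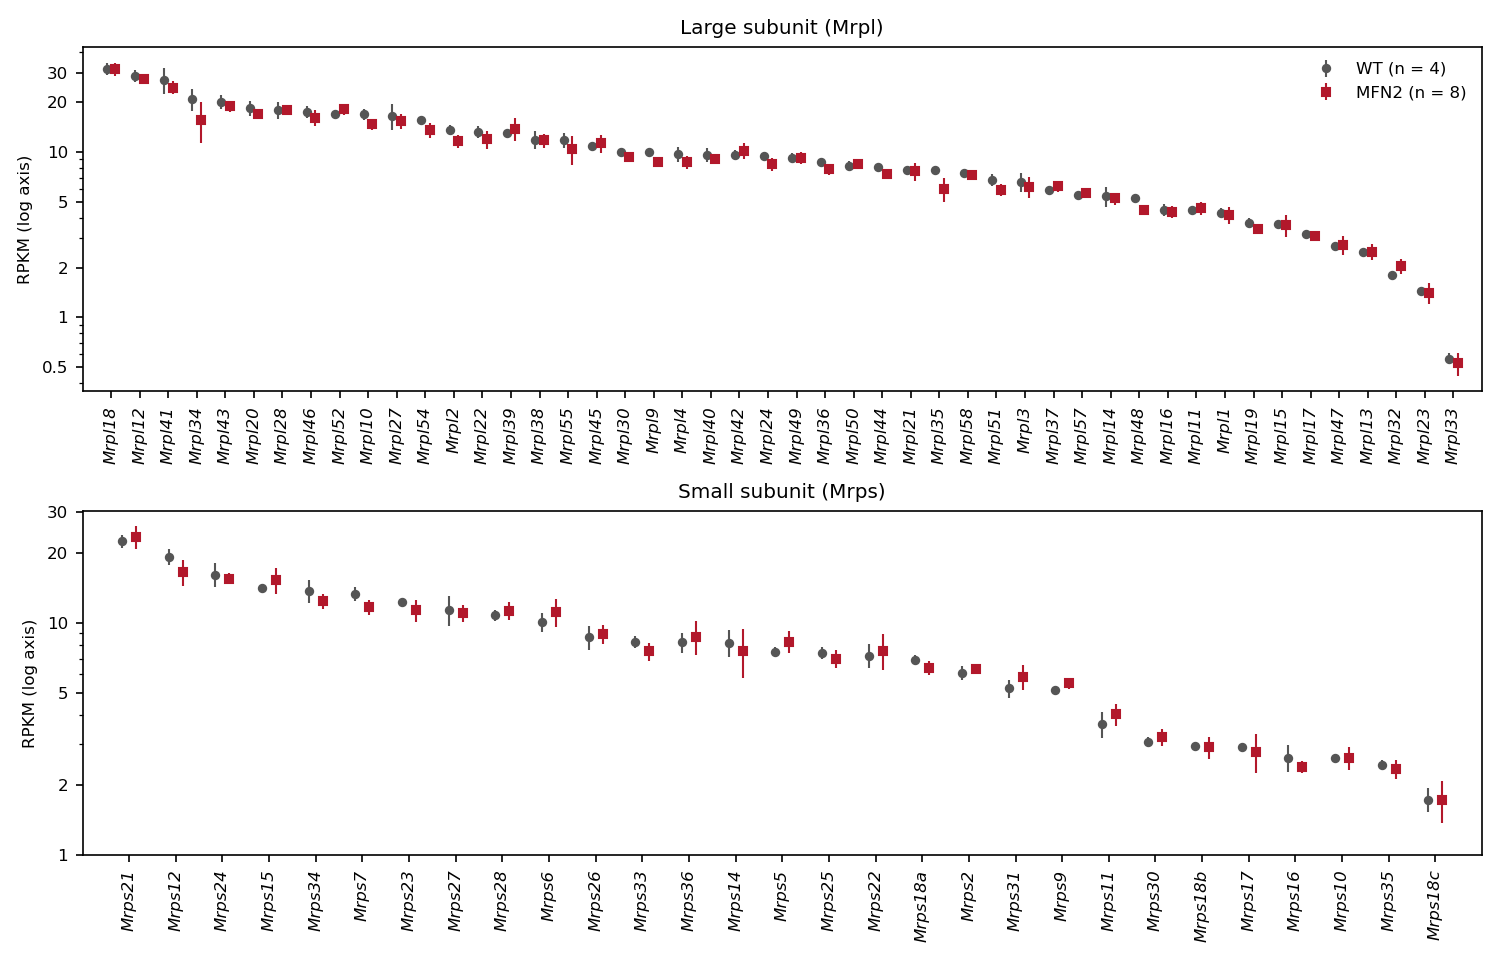
Level of each of the 77 tested members in RPKM (y axis, log scale), ordered by the WT mean, for the large subunit (top) and the small subunit (bottom). Circles are the mean of 4 WT and squares of 8 MFN2 mice, with bars of 1 SD; levels run from 31.9 RPKM for Mrpl18 to 0.563 RPKM for Mrpl33 in WT.

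The question of whether mutant MFN2 altered transcripts of the mitoribosome was addressed first by the sum over all members. The summed level was 1634, 1714, 1786 and 1623 CPM in WT libraries 44 to 47, or 1689 ± 76.1 CPM (SD, n = 4). In MFN2 libraries, it was 1628, 1646 and 1491 CPM in 41 to 43 and 1630, 1632, 1641, 1697 and 1676 CPM in 72 to 76, or 1630 ± 61.4 CPM (SD, n = 8). The groups overlapped, with the highest values in WT libraries 46 and 45 and the lowest in library 43. Without library 43, the MFN2 sum was 1650 ± 26.6 CPM (SD, n = 7). The large subunit summed to 1071 ± 47.7 CPM in WT and 1015 ± 35.7 CPM in MFN2, and the small subunit to 617.9 ± 28.4 and 614.8 ± 27.2 CPM. When counts were scaled by library size alone, the sums were 1646 ± 46.6 CPM in WT and 1646 ± 85.5 CPM in MFN2. In whole tissue, fewer cells of a type and less RNA per cell cannot be told apart.

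**Figure D3:**
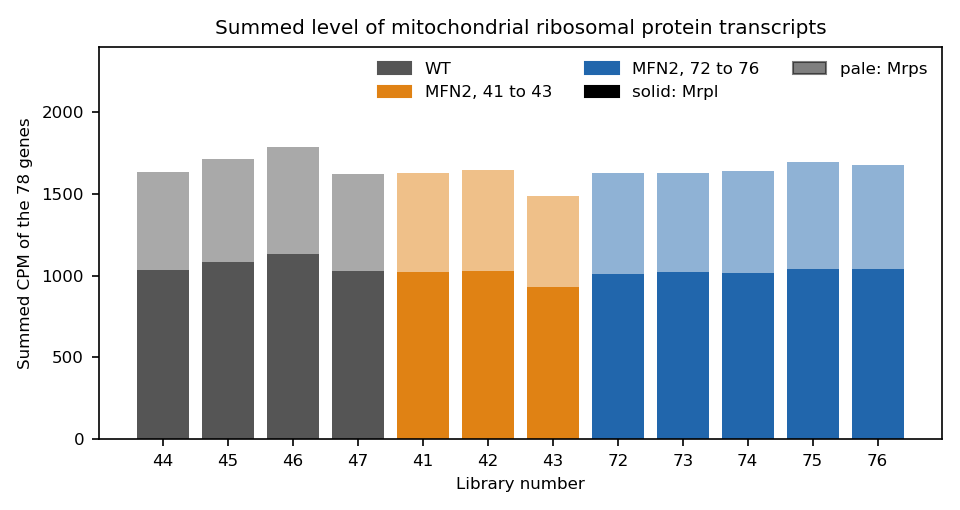
Summed level of the 78 members (y axis, CPM, from 0) in each of the 4 WT and 8 MFN2 libraries (x axis), as bars with the large subunit (solid) below the small subunit (pale). WT libraries lie between 1623 and 1786 CPM and MFN2 libraries between 1491 (library 43) and 1697 CPM.

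In MFN2 mice compared with WT over all 12 libraries, 0 of 77 members were called at a false discovery rate (FDR) of 0.05 by edgeR's quasi-likelihood test, adjusted by Benjamini-Hochberg, as for 0.0% of the 15942 genes tested. DESeq2 called 0 members, and 200 of the 15942 genes (1.25%). At an unadjusted p under 0.05 in edgeR's test, 9 members (11.7%) were counted, against 15.0% of all genes. Slightly lower values prevailed: 53 members had a log2 fold change below 0 and 24 above 0, beside 7848 of the 15942 genes below 0. The median was -0.05 over the members, against 0.00 over all genes tested. By subunit the median was -0.08 over the 48 large and -0.00 over the 29 small subunit genes, with 37 and 16 genes below 0. With library size alone both medians shifted together, to 0.00 over the members and 0.05 over all genes, and the members' median less that of all genes was -0.05 with either scaling. With library size alone, 38 members were below 0. In that setting 5 of 77 members had an unadjusted p under 0.05 in edgeR's test, beside 2582 of the 15942 genes. With TMM, 67 of 76 cytosolic ribosomal proteins and 30 of 37 nuclear-encoded complex I subunits were also below 0, with medians of -0.13 and -0.11.

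Single members in this comparison had the following values. Mrpl48, a mitochondria-specific protein of the central protuberance on chromosome 7 (100545751 to 100608301), had 40.1, 46.1, 41.3 and 43.99 CPM in WT libraries 44 to 47. In the 8 MFN2 libraries, it ranged from 34.2 CPM to 40.0 CPM with a median of 35.2 CPM. All MFN2 values were below all WT values, by the narrowest of margins for library 41, and the log2 fold change was -0.24 (SE 0.0650) with an adjusted p of 0.254 in edgeR's quasi-likelihood test. Mrpl35, a large-subunit protein shared with bacteria on chromosome 6 (71812997 to 71826969), had 32.6, 32.5, 33.3 and 31.2 CPM in WT and from 17.7 to 31.1 CPM in MFN2, with a median of 24.3 CPM. Its groups also did not overlap, and the log2 fold change was -0.38 (SE 0.119, adjusted p = 0.269 in edgeR's quasi-likelihood test). These were the only 2 members without overlap between genotypes, a property of 2.04% of all genes tested. Mrpl2, which lines the peptidyl transferase centre, had a log2 fold change of -0.23 (SE 0.0830), Mrpl10, the base of the stalk, -0.20 (SE 0.0705), and Mrpl9 -0.19 (SE 0.0639), each with an adjusted p of 0.278 in edgeR's quasi-likelihood test. The largest difference was that of Mrpl34 at -0.42 (SE 0.189, adjusted p = 0.323 in edgeR's quasi-likelihood test), with values of 7.07 to 13.9 CPM in MFN2 that overlapped the 11.0 to 15.4 CPM of WT. Mrpl32 had the highest log2 fold change, 0.17 (SE 0.0955).

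In MFN2 libraries 72 to 76 compared with WT, 12 of 77 members (15.6%) were called by edgeR's quasi-likelihood test at an FDR of 0.05, a smaller share than the 23.8% of all 15743 genes tested. Of these, 5 members were higher and 7 lower, while 11.1% of all genes were called higher and 12.7% lower. Thus the members were not called more often than other genes, and they moved both ways. The median log2 fold change was -0.04 over the members and -0.00 over all genes. Groups did not overlap for 14 members, 5 higher and 9 lower, a property of 19.8% of all genes. In this contrast the astrocyte markers averaged 4882 CPM in MFN2 and 6576 CPM in WT, the microglial markers 35.2 and 47.4 CPM and the endothelial markers 33.1 and 45.4 CPM. Of the 2 endothelial genes, Cldn5 had 13.05 to 19.97 CPM in MFN2 and 19.82 to 32.73 CPM in WT. Pecam1 had 14.33 to 21.67 CPM in MFN2 and 14.27 to 20.53 CPM in WT. The part of cell composition in the members' values was not tested.

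The 7 members that fell included 6 of the large subunit. Mrpl34, on chromosome 8 (71464959 to 71465747), had 12.1, 12.2, 15.4 and 11.0 CPM in WT and 7.07, 7.48, 7.77, 7.67 and 9.84 CPM in MFN2 libraries 72 to 76. MFN2 libraries 41 to 43 were at 13.1, 13.9 and 8.96 CPM. The 5 libraries were thus below every WT library, whereas 2 of the 3 other MFN2 libraries lay within the range of WT. The log2 fold change was -0.67 (SE 0.119, adjusted p = 0.00231 in edgeR's quasi-likelihood test). Mrpl35 had 24.5, 23.7, 24.6, 23.5 and 17.7 CPM in libraries 72 to 76 and 30.4, 31.1 and 24.1 CPM in 41 to 43. Against the WT values given above, the log2 fold change was -0.51 (SE 0.0881, adjusted p = 0.00217 in edgeR's quasi-likelihood test) in libraries 72 to 76, and library 43 was the single library of the first run at their level.

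Mrps12, the small-subunit protein of the decoding centre on chromosome 7 (28739641 to 28741820), had 17.9, 19.9, 21.6 and 20.6 CPM in WT. It had 13.9, 15.9, 16.2, 16.8 and 16.5 CPM in libraries 72 to 76 and 20.4, 18.1 and 20.1 CPM in 41 to 43. Libraries 72 to 76 were lower than all others, and the log2 fold change against WT was -0.34 (SE 0.0768, adjusted p = 0.00855 in edgeR's quasi-likelihood test). Mrpl48 had 34.2, 34.5, 34.4, 35.96 and 39.2 CPM in libraries 72 to 76 and 40.0, 37.8 and 34.3 CPM in 41 to 43. It was below WT in both runs, with a log2 fold change of -0.27 (SE 0.0611, adjusted p = 0.00844 in edgeR's quasi-likelihood test) in libraries 72 to 76. Mrpl51, Mrpl10 and Mrpl9 fell by 0.26, 0.25 and 0.23 on the log2 scale, with adjusted p-values of 0.0172, 0.0179 and 0.0224 in edgeR's quasi-likelihood test. The groups did not overlap for Mrpl51 and Mrpl10, while Mrpl9 had 24.7 CPM in library 75 and 24.6 CPM in WT library 44.

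The 5 members that rose included 3 of the small subunit. Mrpl39, a mitochondria-specific protein of the large subunit on chromosome 16 (84717576 to 84735742), had 32.4, 33.6, 34.2 and 32.5 CPM in WT. It had 40.0, 39.1, 38.5, 38.3 and 37.6 CPM in libraries 72 to 76 and 28.4, 32.3 and 25.7 CPM in 41 to 43. The first run of MFN2 libraries was therefore below WT and the second above it, without overlap in either case. For the first run the margin was narrow, with 32.31 CPM in library 42 and 32.39 CPM in WT library 44. Mrpl39 was not called in libraries 41 to 43 against WT (log2 fold change -0.19, adjusted p = 0.622 in edgeR's quasi-likelihood test). The log2 fold change in libraries 72 to 76 was 0.22 (SE 0.0488, adjusted p = 0.00731 in edgeR's quasi-likelihood test). Mrps31, specific to mitochondria, on chromosome 8 (22411361 to 22429665), had 16.9, 15.4, 19.1 and 17.4 CPM in WT and 21.4, 20.6, 20.6, 19.6 and 21.7 CPM in libraries 72 to 76. Its groups did not overlap, and the log2 fold change was 0.27 (SE 0.0723, adjusted p = 0.0182 in edgeR's quasi-likelihood test).

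Mrps15, a small-subunit protein with a bacterial counterpart, had 22.8 to 24.7 CPM in WT, 21.2 to 22.9 CPM in libraries 41 to 43 and 26.2 to 30.2 CPM in 72 to 76, a log2 fold change of 0.21 against WT. Mrps5, the counterpart of a bacterial protein that bears on decoding accuracy, had 47.4 to 52.1 CPM in WT and 51.3 to 61.1 CPM in libraries 72 to 76, with overlap through library 76 alone and a log2 fold change of 0.23. Mrpl42 had 33.4 to 38.5 CPM in WT and 38.3 to 42.2 CPM in libraries 72 to 76, a log2 fold change of 0.18. Their adjusted p-values were 0.0287, 0.0162 and 0.0455 in edgeR's quasi-likelihood test. The rises were all smaller than 0.3 on the log2 scale.

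**Figure D4:**
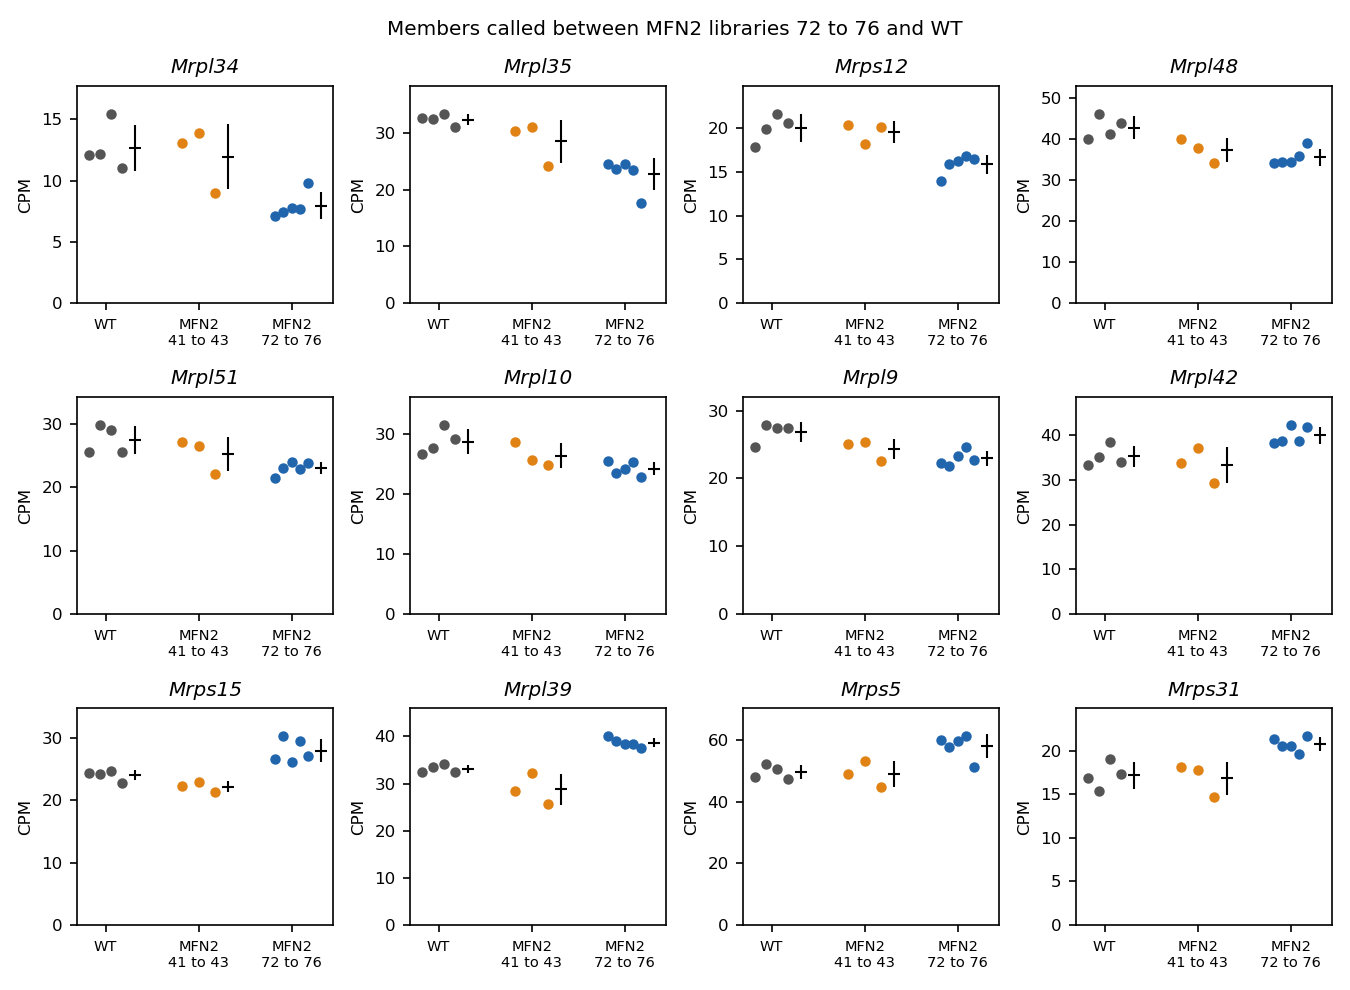
CPM (y axes, from 0) of the 12 members called between MFN2 libraries 72 to 76 and WT, in 4 WT, 3 MFN2 libraries 41 to 43 and 5 MFN2 libraries 72 to 76, with group means and bars of 1 SD. For Mrpl34 and Mrps12 libraries 41 to 43 sit largely with WT. For Mrpl39 they lie below WT (25.7 to 32.3 CPM, a difference that was not called) and libraries 72 to 76 above it (37.6 to 40.0 CPM).

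Calls differed in how far they held. Mrpl34, Mrpl35, Mrpl48 and Mrps12 passed the threshold whichever library was left out and in every other setting run, with adjusted p-values of at most 0.0209, 0.0154, 0.0480 and 0.0369. They were also the only 4 members called (5.19%, against 7.68% of all genes) when WT and both MFN2 runs were fitted together. Without libraries 43, 47 and 73, there were 7 calls (9.09%, against 17.3% of all genes), which added Mrpl39, Mrpl51 and Mrps31 to these 4. Of the 9 fits that left out a library, Mrpl42 was called in 1, Mrps15 in 4, Mrpl9 in 6 and Mrpl51 in 7. Mrpl10 and Mrps31 were called in 8, and Mrps5 and Mrpl39 in all 9. The number of calls ran from 7 without WT library 45, a fit that called 15% of all genes, to 14 without WT library 44, which called 28.9% of them. Library size alone shifted the median of all genes to 0.07, and 12 members were then called higher and 5 lower (22.1%, against 26.5% of all genes), with 10 calls shared with TMM, while 67.7% of all called genes were higher against 46.6% with TMM. Relative to all genes, the median of the members was -0.04 with either scaling.

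In MFN2 libraries 41 to 43 compared with WT 44 to 47, the comparison within a run of numbers, 0 of 77 members were called, where 0.00658% of the 15200 genes tested (1 gene) were. DESeq2 called 0 members, and 5 of the 15200 genes (0.0329%). At an unadjusted p under 0.05 in edgeR's test, 1 member was counted against 7.12% of all genes. That member was Mrpl15, a large-subunit protein on chromosome 1 (4773206 to 4785739). It had 32.2, 30.1, 32.9 and 29.9 CPM in WT and 24.5, 26.5 and 26.3 CPM in MFN2, with no overlap, and its log2 fold change was -0.26 (SE 0.0836, adjusted p = 0.622 in edgeR's quasi-likelihood test). Libraries 72 to 76 were at 31.6, 30.2, 36.01, 36.9 and 32.6 CPM, around and above WT. The median over the members was -0.07, with 56 below 0, beside 7646 of the 15200 genes. Groups did not overlap for 10 members, 1 higher and 9 lower, a property of 8.97% of all genes. With upper-quartile scaling, 5 members and 1026 of the 15200 genes had an unadjusted p under 0.05. In that setting 61 members were below 0, and the median was -0.10 over the members and -0.04 over all genes.

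Of the other members, Mrpl4 and Mrpl22, which line the exit tunnel, had the largest differences, with log2 fold changes of -0.24 (SE 0.122) and -0.24 (SE 0.124). The lowest unadjusted p-values after Mrpl15 were those of 4 members of both subunits: Mrpl2 had a log2 fold change of -0.21 (SE 0.0964), Mrpl1 -0.20 (SE 0.0935), Mrps7, of the small-subunit head, -0.19 (SE 0.0928) and Mrpl48 -0.18 (SE 0.0869). None passed the threshold. In library 43, 30 of the 77 members (39.0%) had their lowest level of all 12 libraries, compared with 28.6% of all genes. Without library 43 the median over the members was -0.03.

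Between the MFN2 runs, libraries 72 to 76 against 41 to 43, a comparison of levels within the genotype since no WT library belongs to the higher run, 1 member was called, against 2.19% of 15633 genes. This was Mrpl39, higher in libraries 72 to 76 by 0.41 on the log2 scale (SE 0.0792, adjusted p = 0.0444 in edgeR's quasi-likelihood test). At an unadjusted p under 0.05, 20 members were counted, 26.0% of those tested against 24.6% of all genes. Mrps22, specific to mitochondria, had 24.3, 30.1, 32.3 and 28.4 CPM in WT, 29.5, 24.1 and 20.5 CPM in libraries 41 to 43 and 32.3, 34.5, 35.7, 33.5 and 32.0 CPM in 72 to 76. The MFN2 runs did not overlap, and the log2 fold change between them was 0.42 (SE 0.105, adjusted p = 0.0723 in edgeR's quasi-likelihood test). Mrpl15 had a log2 fold change of 0.35 (SE 0.0893), Mrps15 of 0.31 (SE 0.0739) and Mrpl34 of -0.61 (SE 0.158), with adjusted p-values of 0.0731, 0.0648 and 0.0782 in edgeR's quasi-likelihood test. The call of Mrpl39 was lost when any library but 42 and 43 was left out. Without library 43, 7 members (9.09%) were called in place of 1, and 15.3% of all genes. With no library left out, DESeq2 called 8 members (10.4%), beside 11.5% of all genes. Library size alone gave 3 member calls in edgeR (3.9%), beside 2.47% of all genes. Between these runs, cell type markers differed too: those of forebrain neurons averaged 159 CPM in libraries 72 to 76 and 1703 CPM in 41 to 43, of motor neurons 145 and 83.1 CPM, of astrocytes 4882 and 6060 CPM, and of microglia 35.2 and 56.1 CPM. The forebrain mean of libraries 41 to 43 rested on library 43, at 4725 CPM, against 208 and 176 CPM in libraries 41 and 42. Motor neuron markers were at 25.2 CPM in library 43, against 98.5 and 126 CPM in libraries 41 and 42. The part of these cell type markers in the members' values was not tested.

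**Figure D5:**
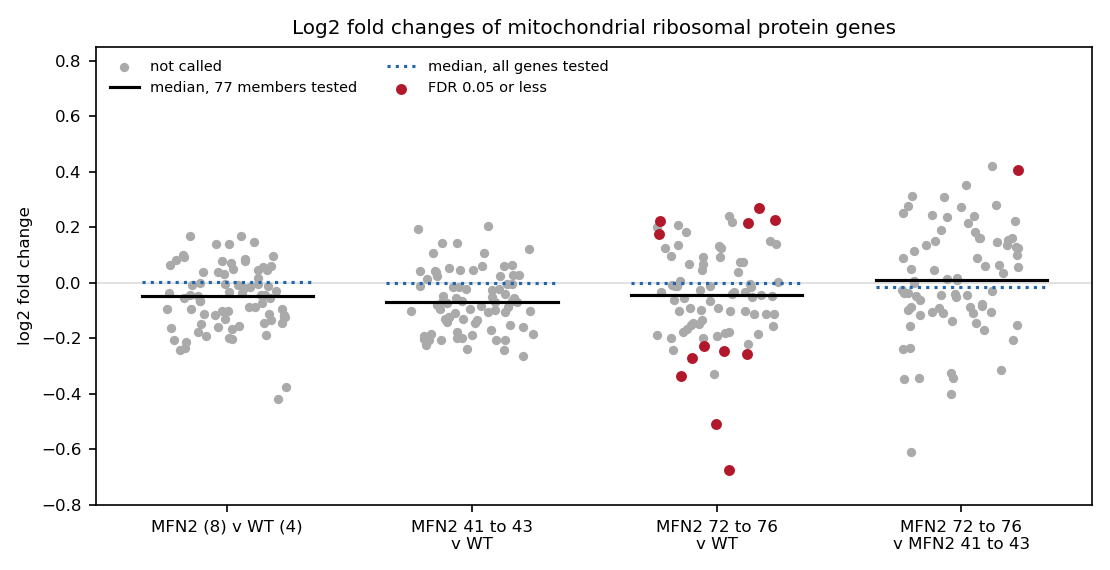
Log2 fold change of each tested member (points) in the 4 comparisons, with the median over the members and over all genes tested. In MFN2 libraries 72 to 76 against WT, the 12 called members lie on both sides of 0, from -0.67 (Mrpl34) to 0.27 (Mrps31).

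The called members came from both subunits and included members with and without bacterial counterparts. In libraries 72 to 76 against WT, 7 of 46 tested members with bacterial counterparts (15.2%) and 5 of 31 specific to mitochondria (16.1%) were called. By subunit, 8 of 48 in the large (16.7%) and 4 of 29 in the small subunit (13.8%) were called. Of all genes tested, 23.8% were called, and differences between these classes were not tested. Length moved with the values. The members are short genes, with a median of 2394 exonic bases against 4275 for the genes tested. When the genes tested in this comparison were divided into 5 groups by length, the 3144 genes with the shortest exons (56 to 2362 bases) had a median log2 fold change of -0.03 and the 3141 with the longest 0.05, while the 38 members among the shortest had a median of -0.10. The part of length in the members' values was not tested.

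Other genes of the pathway were taken from lists of known roles. Of 5 mitoribosomal proteins that lack an Mrp symbol, 2 were called in libraries 72 to 76 against WT, where 23.8% of all genes were. Gadd45gip1, which sits near the exit tunnel of the large subunit, had 28.9, 34.5, 35.4 and 32.1 CPM in WT and 24.6, 20.2, 22.3, 20.6 and 25.5 CPM in libraries 72 to 76. The groups did not overlap, and its log2 fold change was -0.54 (SE 0.0861, adjusted p = 0.00144 in edgeR's quasi-likelihood test). Aurkaip1, of the small subunit, was higher by 0.17 on the log2 scale (adjusted p = 0.0466 in edgeR's quasi-likelihood test).

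Among 26 genes of ribosome assembly and ribosomal RNA modification, 0 were higher and 2 lower, or 7.69%, below the 23.8% of all genes tested. Mpv17l2, an inner-membrane protein needed for assembly, had 9.17, 9.28, 10.5 and 9.03 CPM in WT and 5.01, 4.72, 5.55, 5.27 and 7.95 CPM in libraries 72 to 76, all below WT. Its log2 fold change was -0.74 (SE 0.142, adjusted p = 0.00356 in edgeR's quasi-likelihood test). Ngrn, which acts on the large ribosomal RNA, had -0.30 (SE 0.0692, adjusted p = 0.00845 in edgeR's quasi-likelihood test).

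Of 16 translation factors and proteins that handle mitochondrial messenger RNA, 4 were higher and 0 lower, a share of 25% beside 23.8% of all genes tested, with a median of 0.09. Lrpprc, which holds and stabilises mitochondrial messenger RNAs, had 116, 106, 120 and 124 CPM in WT and 146, 141, 141, 151 and 153 CPM in libraries 72 to 76. In libraries 41 to 43 it had 103, 101 and 97.6 CPM, so that these were below and libraries 72 to 76 above every WT library. The log2 fold change was 0.33 against WT (SE 0.0539, adjusted p = 0.0017 in edgeR's quasi-likelihood test), and 0.52 between the MFN2 runs (SE 0.0594, adjusted p = 0.00966 in edgeR's quasi-likelihood test), the same order of groups as for Mrpl39. Mrrf, the ribosome recycling factor, and Guf1, an elongation factor, each rose by 0.30 on the log2 scale, and Gfm1, the main translocase, rose by 0.15. Of 9 genes of mitochondrial transcription and RNA processing, 1 was called (11.1%), Supv3l1, an RNA helicase, which rose by 0.22. Mrrf, Guf1, Gfm1, Supv3l1 and Aurkaip1 were not called when WT and both MFN2 runs were fitted together, with adjusted p-values of 0.0758, 0.0976, 0.312, 0.0684 and 0.113 in edgeR's quasi-likelihood test. Over all 12 libraries in MFN2 against WT, and in libraries 41 to 43 against WT, 0 genes of these 4 lists were called by edgeR's quasi-likelihood test, with 7 and 4 genes at an unadjusted p under 0.05, beside 15.0% and 7.12% of all genes.

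Proteins of the cytosolic ribosome differed from WT in more of their genes. In libraries 72 to 76, 44 of 76 tested (57.9%) were called, 1 higher and 43 lower, with a median log2 fold change of -0.22, compared with 12 of 77 and -0.04 for the mitochondrial ribosomal proteins. In libraries 41 to 43, 0 were called and the median was -0.01. Among 37 nuclear-encoded complex I subunits, whose mitochondrial partners are translated by the mitoribosome, 3 were higher and 8 lower (29.7%) in libraries 72 to 76, with a median of -0.10. The share of all genes called in this comparison was 23.8%. In libraries 41 to 43 against WT, 35 of the 37 complex I subunits were below 0, with a median of -0.11 and 0 called. The members had a median of -0.07 there, with 56 of 77 below 0. The difference between these lists and the mitochondrial ribosomal proteins was not tested.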

How the data were processed

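Members were the genes of GENCODE M21 with the symbols described, matched by Ensembl ID. Members and lists were chosen with earlier results of these data known. Reads were aligned by the authors with STAR (GRCm38.p6), and the deposited values are whole-number counts of reads for each gene, without normalization; the counting tool and strand setting are not given in the sources used here.

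Genes over 1 CPM in at least 3 of the libraries compared entered TMM scaling and the quasi-likelihood test (legacy form, robust) of edgeR 4.0.16 (R 4.3.3), with Benjamini-Hochberg adjustment over all genes at 0.05. RPKM used the union of annotated exons. DESeq2 1.42.0, other scalings, filters and lengths, left-out libraries, the run of numbers as a covariate and 1 fit of 3 groups were alternatives. Each library is 1 mouse, and no pair of libraries held matching counts.

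Members were named by level (the 5 highest and lowest), by the lowest p or largest change in each comparison, by absence of overlap over all 12 libraries, and for known peculiarities such as paralogs; other called members, pathway genes and Mrpl20, Mrps11, Mrpl36, Mrpl43 and Mrpl46 were named after their values or positions were seen. The tests were checked on simulated counts. Total counts limit the precision of members near 1 CPM, such as Mrps18c with as few as 29 counts. One of the marker lists checked is not reported here.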

Additional observations from a re-analysis of the deposited data

Results flagged for a closer look

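Of 62 groups of 4 or 8 libraries examined for a single distant library, 5 held one, where chance gives about 1 in 20 groups, or 3.1 groups. The distance is the gap to the nearest library divided by the whole range of the group. In MFN2 library 43, the lowest of 8, it was 0.585 for Mrpl18 (34.7 CPM, group median 45.2 CPM), 0.671 for Mrpl45, which anchors the ribosome to the inner membrane (20.6 and 30.8 CPM), and 0.665 for the summed level (1491 and 1636 CPM). Mrpl58, a peptidyl-tRNA hydrolase within the ribosome, was highest in MFN2 library 76 at 27.5 CPM (0.591, median 23.5 CPM). Mrpl9 was lowest in WT library 44 at 24.6 CPM (0.863, median 27.4 CPM).

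The level of Mrpl39 differed between the MFN2 runs, by a log2 fold change of 0.406 (adjusted p = 0.0444 in edgeR's quasi-likelihood test): all 5 libraries 72 to 76 were above WT and all 3 libraries 41 to 43 below it. The difference of libraries 41 to 43 from WT was not called (adjusted p = 0.622 in edgeR's quasi-likelihood test). No WT library belongs to the run of 72 to 76, so that a difference between runs and one in the effect of the genotype cannot be told apart. The Y-linked Ddx3y was at 0 CPM in libraries 42 and 72 to 76, against 89.4 and 66.4 CPM in libraries 41 and 43. The part of sex in the level of Mrpl39 was not tested. In leave-one-out fits the call was lost in 6 of 8.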

How the results depend on the processing

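Called members numbered 0 in MFN2 against WT, and in libraries 41 to 43 against WT, in every alternative run, which says nothing of stability for changes as small as the members', since these designs rarely call them. Over all genes, DESeq2 called 200 in MFN2 against WT. In libraries 72 to 76 against WT, the fit of 3 groups called 1224 genes and 4 members, the median over the members was 0.027 with library size alone, and 7 members were called without libraries 43, 47 and 73, a setting added after the data were seen. In libraries 41 to 43 against WT, all genes called numbered 5 with DESeq2 and 0 with the fit of 3 groups, without a filter and without libraries 43, 47 and 73. Between the MFN2 runs, DESeq2 called 1795 genes (11.5%) and 8 members (10.4%). Library size alone called 3 members (3.9%, beside 2.47% of all genes), upper-quartile scaling 2 (2.6% and 2.38%) and no filter 0 (beside 0.933% of all genes). The set without libraries 43, 47 and 73 called 1831 genes (12%) and 4 members (5.19%). The median level became 10.95 RPKM over the longest transcript. Tefm, a transcription elongation factor, reversed to -0.012 with the run as a covariate.

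Leaving out 1 library gave 0 to 19 genes (19 without library 43), 0 to 0 members and medians of -0.07 to -0.03 in MFN2 against WT; 2350 to 4517 genes, 7 (without WT 45) to 14 members (without WT 44) and -0.06 to -0.02 in libraries 72 to 76; 0 to 2 genes, 0 to 0 members and -0.10 to -0.03 in 41 to 43; and 31 (without 74) to 2375 genes (without 43), 0 to 7 members and -0.02 to 0.04 between the runs. Of 980 fits of 56 results for named genes, 888 kept their direction and side of the threshold, 70 lost the call, 21 gained it and 1 (Tefm) reversed. No paired analysis was run, because the labels do not say which MFN2 and WT mice shared a litter or were otherwise paired.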
